A study of Arabidopsis thaliana with 6 samples.

Results

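NLP2 is a NIN-like protein of Arabidopsis thaliana, and its binding was mapped by chromatin immunoprecipitation and sequencing (ChIP-seq) through a GFP tag. The regions described here are the peaks called 30 min after nitrate supply whose summits lay more than 1000 bp from every protein-coding gene, called far peaks below. There were 209 such peaks among the 593 of the nitrate-time list (35.2%). Of these, 119 had no peak of the starvation list at the same place and 90 overlapped one by at least 1 bp, while in the whole nitrate-time list 80.8% of peaks had none. Both the distance and the overlap were read from the same lists, so these counts are a description of the choice and not a test.

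The nitrate-time group (T30) consisted of seedlings given 3 mM NO3- for 30 min after nitrogen starvation, and the starvation group (T0) of seedlings given fresh nitrogen-free medium instead. All plants were labelled 14 days old and had the same genotype, the nlp2-2 mutant in Col-0 carrying the construct pNLP2::NLP2-GFP, in which the NLP2 promoter drives the tagged protein. Chromatin from ground whole seedlings was precipitated with anti-GFP antibodies, so cell types cannot be told apart. There were 2 precipitated libraries and 1 input library (chromatin sequenced without precipitation) at each time, and no library of untagged plants was analysed here. The authors deposited 1 pooled peak list per time, so no spread between replicates can be given for any peak and no difference between the times was tested. Read depth is unknown from these lists, and the lists were called separately, so a missing T0 peak does not show that NLP2 was absent there.

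NIN-like proteins bind DNA through an RWP-RK domain and recognise the nitrate-responsive cis-element found near many nitrate-induced genes. In the best studied member, NLP7, nitrate brings about retention of the protein in the nucleus. Nitrate-induced genes include nitrate transporters, the nitrate and nitrite reductases that turn nitrate into ammonium, and regulators that restrain or extend the response. Most Arabidopsis regulatory sequence lies close to genes, and long stretches without genes occur mainly in the repeat-rich chromatin around the centromeres.

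The far peaks fell into 2 kinds of place. The 119 without a T0 peak lay a median of 1.81 kb from the nearest protein-coding gene, and 66 of them lay within 2 kb. The 90 that overlapped a T0 peak lay a median of 51.78 kb away, with only 2 of them within 2 kb. The middle 50% of distances ran from 1.38 to 2.95 kb in the peaks without a T0 peak and from 20.87 to 117.7 kb in those with one, so these ranges did not overlap. Full ranges did overlap, at 1.01 to 179.9 kb without a T0 peak and 1.38 to 240.8 kb with one.

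**Figure D1:**
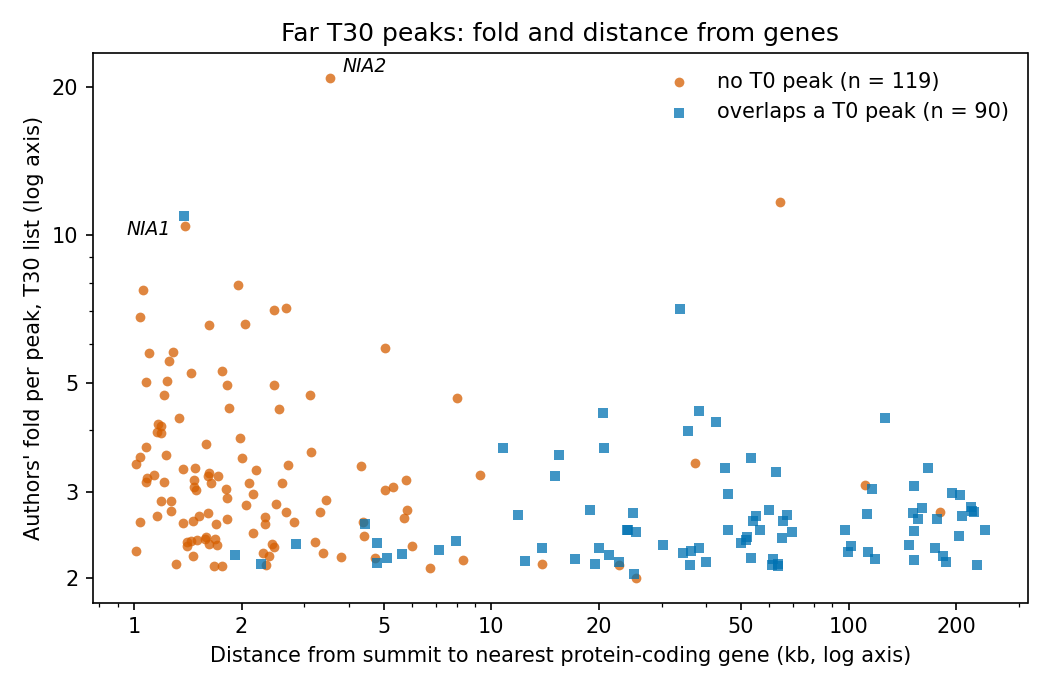
Each point is a far T30 peak, with the distance from its summit to the nearest protein-coding gene on the horizontal axis (kb, log scale) and the authors' fold in the T30 list on the vertical axis (log scale). Circles have no T0 peak (n = 119) and squares overlap one (n = 90); circles crowd between 1 and 3 kb, and most squares (79 of 90) lie beyond 10 kb.

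A larger share of peaks overlapped the T0 list in the classes farther from genes. Among T30 peaks 1 to 2 kb from a gene, 2 of 68 overlapped a T0 peak (2.94%, exact Clopper-Pearson 95% interval 0.358% to 10.2%), against 19.2% of the whole T30 list. Between 2 and 3 kb the share was 2 of 25, and between 5 and 10 kb 4 of 15. Beyond 10 kb, 79 of 86 far peaks overlapped a T0 peak (91.9%). Of the T30 peaks that were not far, 0 of 189 outside a gene but within 1 kb overlapped a T0 peak, and 24 of 195 inside genes did. The intervals cover counting error only, and neighbouring peaks are not independent.

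**Figure D2:**
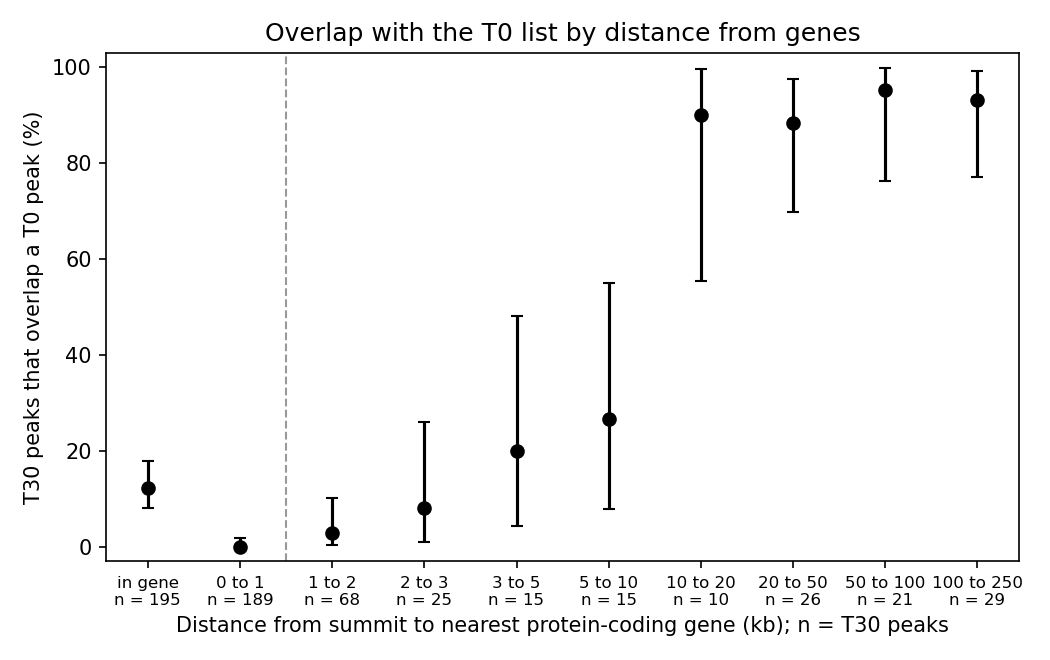
Points give the percentage of T30 peaks that overlap a T0 peak in each class of distance from summit to nearest protein-coding gene, with exact 95% intervals for counting error. Right of the dashed line are the far peaks; the percentage is 2.94% at 1 to 2 kb and 93.1% at 100 to 250 kb, and classes from 3 to 20 kb hold 15 peaks or fewer each.

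Gene density around the summits separated the same peaks. Summits were called gene-poor if the window reaching 500 kb to either side held under 100 starts of protein-coding genes. By this measure 13 of the 119 peaks without a T0 peak were gene-poor (10.9%), against 77 of the 90 with one (85.6%), beside 15.5% of the whole T30 list. The median number of genes was 276 around peaks without a T0 peak and 23 around those with one. Among all 209 far peaks, 43.1% were gene-poor. Of all bases farther than 1000 bp from protein-coding genes, a similar share, 42.5%, lay in gene-poor regions. In surroundings of 250 or more genes, 0 of 91 far peaks overlapped a T0 peak.

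**Figure D3:**
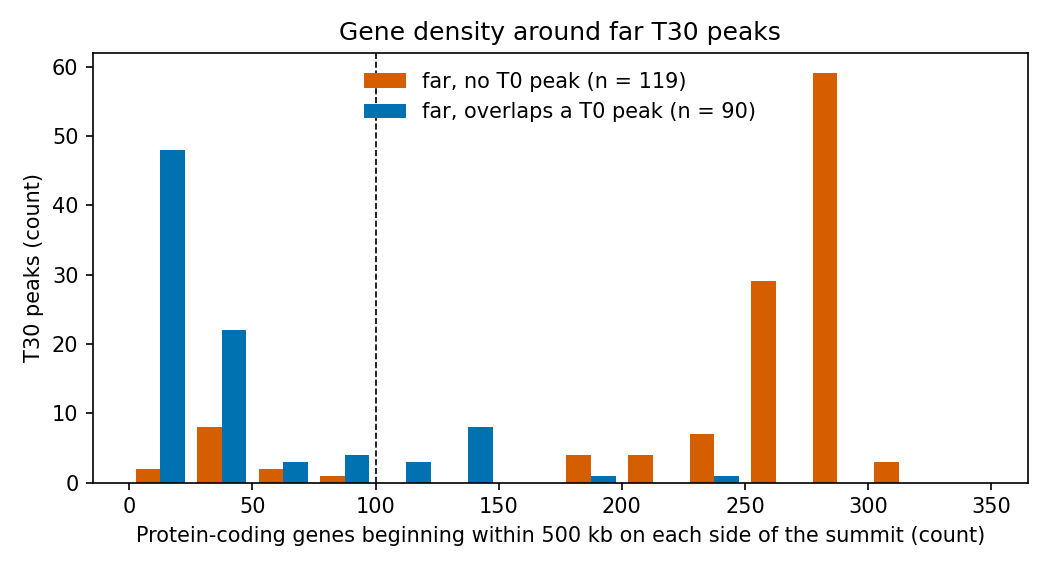
Bars count far T30 peaks by how many protein-coding genes begin in a window reaching 500 kb to either side, for peaks without a T0 peak (n = 119) and with one (n = 90). The dashed line marks the limit of 100 genes; 106 peaks without a T0 peak lie at or above it and 77 peaks with one lie below it.

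Peaks without a T0 peak also stood higher in the T30 list. Their median fold, the authors' enrichment value for each peak, was 3.06 (range 2.01 to 20.9), against 2.49 (2.04 to 10.9) for those overlapping a T0 peak and 2.82 for the 384 T30 peaks in or within 1 kb of genes. A fold of 5 or more was found in 18 of 119 peaks without a T0 peak and in 2 of 90 with one. Peaks without a T0 peak were narrower, as their widths had a median of 389 bp, against 492.5 bp in those with one. The ranges of fold and width overlapped widely between both kinds, and no test was made, since the members were chosen from these lists.

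The 1000 bp limit cuts through a continuous run of distances. The 3 peaks just inside the rule lay 1011, 1011 and 1042 bp from a gene, with folds of 2.28, 3.41 and 2.6. The 3 just outside it lay 984, 977 and 972 bp away, with folds of 2.66, 6.92 and 6.77. All 6 lacked a T0 peak.

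Among the peaks without a T0 peak, those beside nitrate assimilation genes ranged in fold from 2.67 to 20.9. The highest fold of the whole T30 list, 20.9, was at chr1:14165230-14165777, with its summit 3.54 kb from NIA2 (AT1G37130), which encodes the major nitrate reductase. NIA2 was the nearest gene of a further 2 far peaks on its other side, chr1:14150137-14150656 with a fold of 4.66 at 8.04 kb and chr1:14152479-14152743 with a fold of 2.76 at 5.82 kb. All 3 lay in a gene-poor region with 37 genes in the window, and the nearest T0 peak was 15.48 kb or more away. NIA2 had no T30 summit inside it or within 1 kb.

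NIA1 (AT1G77760), the other nitrate reductase gene, was flanked by far peaks on both sides. The peak chr1:29233968-29234646 had a fold of 10.4 and its summit 1.39 kb from NIA1, and chr1:29240952-29242018 had a fold of 5.27 at 1.76 kb beyond the other end. Farther out on each side, chr1:29232738-29233183 had a fold of 2.74 at 2.73 kb and chr1:29242310-29242596 a fold of 2.67 at 2.96 kb. These outer peaks were nearer to AT1G77750 and AT1G77765 than to NIA1. On each side the peak closer to NIA1 had the higher fold.

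For the nitrite reductase gene NIR1 (AT2G15620), which carries out the next step to ammonium, the far peak was the weaker of 2. It lay at chr2:6808471-6808803, 1.72 kb from the gene, with a fold of 3.22, while the peak inside the gene had a fold of 5.37. AT2G15610 lay 1.91 kb from the far summit on the other side.

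Regulators of the nitrate response made up the next group. LBD37 (AT5G67420) and LBD39 (AT4G37540) encode LOB-domain repressors of nitrate-responsive genes. The far peak beside LBD37, chr5:26901661-26902411, had a fold of 7.92 at 1.95 kb, and the peak at the gene's end had 7.38. Beside LBD39, the far peak chr4:17641676-17642285 had a fold of 7.71 at 1.06 kb, and the peak 0.12 kb from the gene had 2.79. Genes on the other side were almost as near: AT5G67411 lay 2.18 kb from the LBD37 far summit and AT4G37550 1.12 kb from the LBD39 one. For LBD37 and LBD39 alike, the far peak had the highest fold of the T30 peaks nearest to that gene.

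BT2 and BT1 encode BTB and TAZ domain proteins known to respond to nitrate. Both had far peaks and no closer summit: chr3:17911489-17912017 beside BT2 (AT3G48360) had a fold of 6.81 at 1.04 kb, and chr5:25336404-25337230 beside BT1 (AT5G63160) a fold of 5.78 at 1.29 kb. HRS1 (AT1G13300), a GARP-family repressor, had chr1:4554116-4554534 with a fold of 4.42 at 2.54 kb, and DOT5 lay 2.71 kb from that summit on the other side. A T30 summit that was not far, with a fold of 2.48, lay closer to HRS1, at 1.49 kb, but another gene was nearer to it. TGA1 (AT5G65210), a bZIP factor, had chr5:26056229-26056549 with a fold of 3.25 at 1.14 kb and, nearer to AT5G65207, chr5:26054186-26054885 with a fold of 2.72 at 3.20 kb from TGA1.

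NLP2 itself (AT4G35270) was the nearest gene of chr4:16784225-16784700, with a fold of 4.95 at 2.47 kb. DAZ2 lay 2.76 kb from this summit on the other side. The peak inside NLP2 had a fold of 2.04 in the T30 list and overlapped a T0 peak, whereas the far peak did not. Another summit, with a fold of 2.87, lay 0.97 kb from NLP2 inside the neighbouring gene IDH1. The plants carry an added NLP2 construct whose extent is not given in the sources used here, so reads from the construct and from the native gene cannot be told apart.

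The 3 nitrate transport genes of the lists with a far peak as nearest gene had folds of 2.6 or less there. The dual-affinity nitrate transporter and sensor gene NRT1.1 (AT1G12110) had chr1:4100653-4100971 with a fold of 2.6 at 4.38 kb. In the same gap, chr1:4097506-4097886 had a fold of 4.94 and lay 7.52 kb from NRT1.1 and 1.82 kb from AT1G12100. NRT2.2 (AT1G08100), a high-affinity transporter, had chr1:2530259-2530673 with a fold of 2.14 at 1.31 kb, beside a closer peak with a fold of 2.78. NPF7.3 (AT1G32450), which loads nitrate into the xylem, had chr1:11728225-11728520 with a fold of 2.18 at 8.35 kb.

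Counted over 95 genes in 7 lists of nitrate and nutrient functions, 13 genes were the nearest gene of a far peak, through 16 peaks. All 16 lacked a T0 peak, which is 13.4% of the 119 (exact 95% interval 7.88% to 20.9%), against 0 of the 90 with a T0 peak. Over all 209 far peaks the share was 7.66%, beside 9.64% of the 384 T30 peaks in or within 1 kb of genes. In the whole T30 list it was 8.94%. The lists were compiled with results of these data known, and no test was made. Of the 13 genes, NRT2.2, NIR1, LBD37, LBD39 and NLP2 also had a summit inside them or within 1 kb. The other 8, NIA1, NIA2, NRT1.1, NPF7.3, HRS1, TGA1, BT1 and BT2, had far peaks but no summit inside them or within 1 kb.

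Of all 27444 protein-coding genes, 109 were the nearest gene of a far peak without a T0 peak. By list, the far peaks reached 6 of 15 nitrate-responsive regulators and 3 of 7 genes of nitrate reduction and its cofactors. They were nearest to 3 of 19 nitrate transport genes and 1 of 17 nitrate signalling genes. They reached 0 of 14 genes of the pentose phosphate pathway and reductant supply, of which 10 had a summit inside or within 1 kb. They also reached 0 of 15 genes of ammonium assimilation, where 4 had such a summit, and 0 of 8 cytokinin and phosphate genes, where 2 had one. Of the ammonium assimilation genes, ASN1 (AT3G47340), an asparagine synthetase gene, lay 1.51 kb from chr3:17442717-17443195 (fold 3.34), whose nearest gene was AT3G47341. GLN1;2 (AT1G66200), a cytosolic glutamine synthetase gene, lay 4.53 kb from chr1:24662131-24662417 (fold 2.73), which was nearer to AT1G66210.

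**Figure D4:**
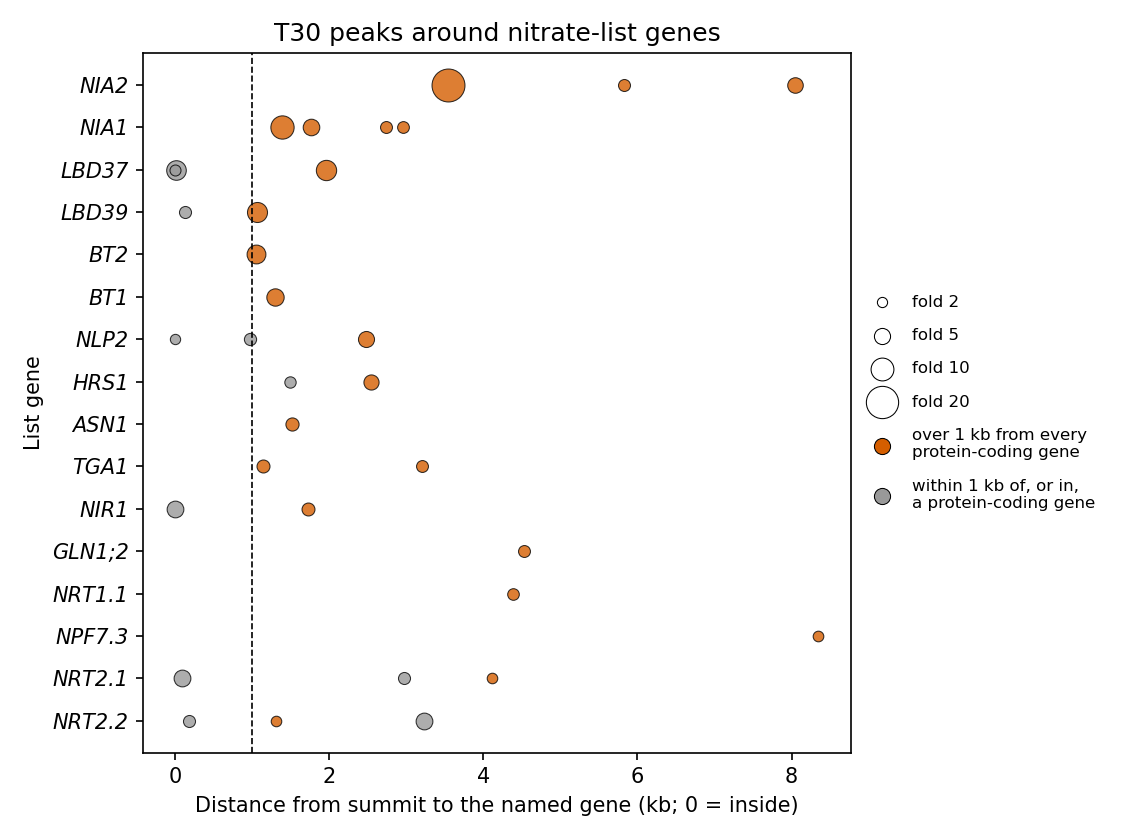
Rows are the list genes with a far T30 peak within 5 kb or as nearest gene, and the horizontal axis gives the distance from each T30 summit to the gene (kb, 0 = inside). Point area is proportional to the authors' fold; coloured points are far peaks, grey points are peaks within 1 kb of, or in, some protein-coding gene. NIA2 and NIA1, at the top, have far peaks with folds of 20.9 and 10.4 and no grey point.

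Other peaks without a T0 peak and with high folds lay beside genes outside the lists. The peak chr1:7334165-7335010, with a fold of 7.10, lay 2.67 kb from AT1G20990. The peak chr1:25951457-25952093, with a fold of 7.02, lay 2.47 kb from AT1G69030, and chr1:25699489-25699957, with 6.57, lay 2.04 kb from AT1G68500. AT3G07350 was the nearest gene of chr3:2350162-2350576, with a fold of 6.55 at 1.62 kb, and of a second peak with a fold of 3.97. Together with another peak nearest to AT3G07340 (fold 3.22), they formed a group spanning 5.5 kb. It was the only group of 3 or more far peaks, chained by gaps under 5 kb, that held no peak with a T0 overlap.

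The 119 peaks without a T0 peak were spread over all chromosomes, with 37, 11, 21, 20 and 30 on chromosomes 1 to 5. Among them, 109 different genes were nearest, and 8 genes were nearest to 2 or 3 of them. The nearest gene also had a T30 summit inside it or within 1 kb in 13 of 119 cases, and in 18 cases one of the genes on either side did. The gap between the protein-coding genes on both sides had a median length of 5.54 kb.

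Some of these summits lay inside annotated long non-coding RNA genes: 13 of 119 (10.9%), against 0 of 90 with a T0 peak. The share was 6.22% over all 209 far peaks, 14 of 384 in T30 peaks in or near genes and 4.55% of the whole T30 list. How many of the bases far from protein-coding genes lie in such genes was not computed. The BT2 peak lay inside AT3G07945. The AT3G07350 peaks lay inside AT3G01975 and AT3G01985 (fold 6.55) and inside AT3G01965 (fold 3.97). Others were in AT1G09967 and AT1G09973 between ATXRCC1 and AT1G80440 (fold 5.04), in AT2G09245 beside SSL1 (4.25), in AT1G04967 beside AT1G12730 (4.09) and in AT5G08655 and AT5G08665 beside GNC (3.62). Lower folds were found in AT3G09435 and AT3G09425 beside AT3G60520 (3.39), in AT1G06607 beside AT1G32700 (2.87), in AT1G06297 and AT1G06303 beside AT1G29950 (2.65) and in AT4G07535 beside BGAL12 (2.58). The remaining 2 had folds of 2.22 and 2.21. A further summit, with a fold of 3.22, lay in AT3G00240, a gene of the class misc_RNA. Peaks have no strand, so these positions do not tell which transcript a site might belong to.

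The 90 far peaks that overlapped a T0 peak lay at nearly the same positions at both times. The T30 and T0 summits lay a median of 6 bp apart, within 10 bp in 57 of 90 cases and within 100 bp in 80. The greatest distance was 1775 bp, in the broad peak chr5:11893004-11895288. The shorter of the paired peaks was wholly covered by the other in 57 cases, and the lowest overlap was 74.2% of the shorter peak. The 90 T30 peaks met 90 different T0 peaks, which made up 29.6% of the 304 T0 peaks that were far from genes by the same rule.

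The folds of these peaks were set against the median of each list in turn. At T30, 24 of the 90 had a fold at or above the T30 list's median of 2.75. At T0, 87 of the 90 overlapped peaks had a fold at or above the T0 list's median of 2.06. The T0 list reaches weaker calls, as only 257 of its 579 peaks met the q limit of the T30 list. The 2 medians were thus not taken at the same cutoff, and a place above or below them is not comparable between the lists. Within the 90, the order of folds was alike in both lists (Spearman's rho 0.84 across peaks, which share their genomic positions and the authors' peak calling). Because the lists were called separately, these values do not measure a change in binding.

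**Figure D5:**
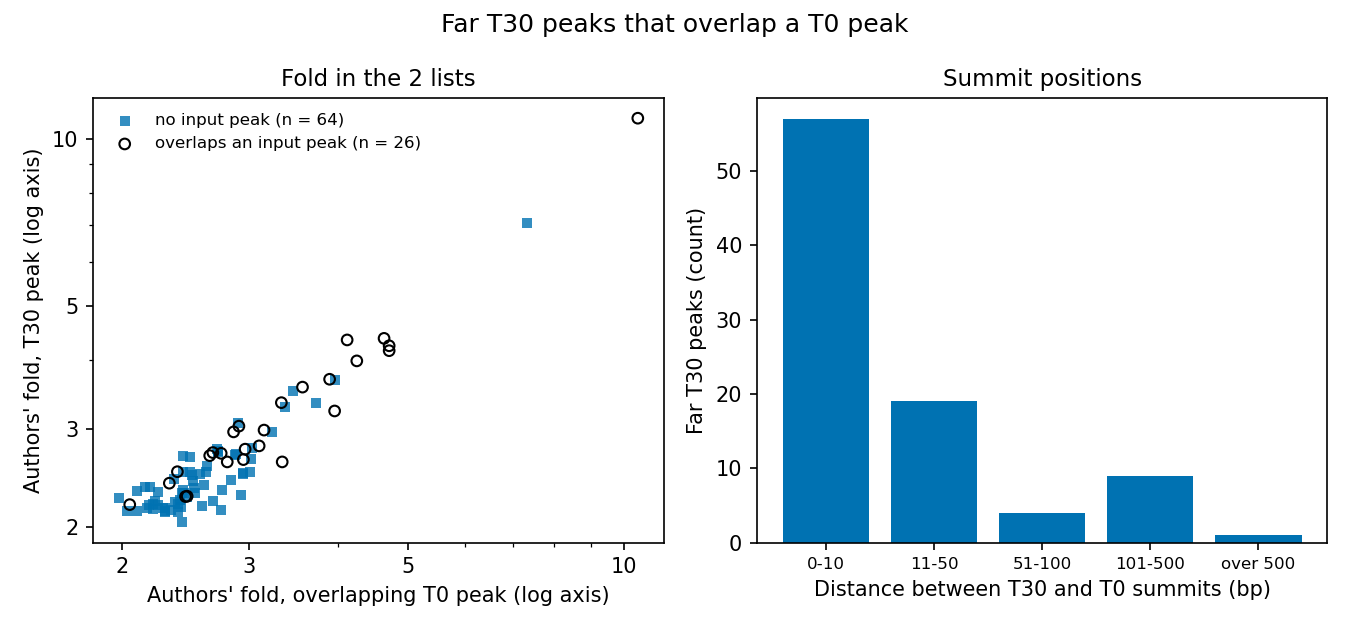
Left, each of the 90 far T30 peaks with a T0 overlap is plotted by the authors' fold in the T30 list (vertical) and in the T0 list (horizontal), both on log axes; open circles overlap an input peak (n = 26) and squares do not (n = 64). Right, bars count these peaks by the distance between their T30 and T0 summits, 57 of them at 10 bp or less.

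The shared peaks clustered in a few stretches, and chromosome 5 alone held 37 of the 90. On chromosome 5, 36 gene-poor ones lay between 11661289 and 12869294, a span of 1.21 Mb. On chromosome 3, 20 gene-poor ones of 21 shared peaks lay within 3.74 Mb from 11563516 to 15305522. On chromosome 1, all 12 shared peaks were gene-poor and lay within 1.84 Mb from 13942775 to 15786305. Chromosomes 2 and 4 had 10 shared peaks each, of which 5 and 4 were gene-poor. The 90 peaks had 36 different nearest genes, and AT5G30520 alone was nearest to 13 of them, from 24.92 to 175.02 kb away. Of the 11 groups of 3 or more chained far peaks, 10 held shared peaks, the longest with 8 peaks over 17.9 kb at chr5:12851410-12869294.

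The shared peaks farthest from genes were all on chromosome 3. The peak chr3:13779683-13779992 lay 240.82 kb from AT3G33187 with a fold of 2.51. It was followed by chr3:13791693-13792061 at 228.92 kb (fold 2.13), chr3:13754814-13755117 at 224.92 kb (2.73), chr3:13798418-13798716 at 222.07 kb (2.74) and chr3:13800646-13801174 at 219.58 kb (2.80).

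The highest fold among the shared peaks was 10.9 at T30 and 10.5 at T0, at chr2:19697672-19698285. It lay 1.38 kb from AT2G48160, the last protein-coding gene of that chromosome in the table. It overlapped input peaks of both times, with the authors' input folds of 3.91 at T30 and 8.23 at T0. Next came chr1:14509510-14509819, with 7.06 at T30 and 7.34 at T0, 33.67 kb from AT1G38790. It overlapped no input peak. The other 88 had T30 folds of 4.37 or less.

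The following 4 in order of T30 fold lay on chromosome 5: chr5:11674325-11675087 (4.37 at T30 and 4.63 at T0), chr5:12056075-12056475 (4.34 and 4.11), chr5:11762675-11763959 (4.24 and 4.71) and chr5:11678690-11679455 (4.15 and 4.71). All 4 overlapped T0 input peaks, as did chr5:12823981-12824458 (3.98 and 4.24), chr3:14217066-14218227 (3.69 and 3.89) and chr5:12060090-12061388 (3.57 and 3.56). The peak chr5:12809314-12809622 (3.68 and 3.95) overlapped none. With lower T30 folds, input peaks were also overlapped by chr5:11681790-11682227 (3.35), chr4:4777217-4777707 (3.23), chr5:11960400-11960865 (3.04) and chr3:13724481-13725409 (2.99). Their T0 input folds were 2.50, 2.36, 3.12 and 2.84.

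Input libraries contain chromatin that was not precipitated, so a peak there is signal without NLP2-GFP selection. The names of both precipitated lists carry the tag noINPUT, which the sources used here do not explain. If the authors had already removed peaks by their input signal, the shares that follow are what remained after that step. An input peak of either time was overlapped by 4 of the 119 peaks without a T0 peak (3.36%), against 26 of the 90 with one (28.9%) and 5.40% of the whole T30 list. All 30 met a T0 input peak, and 3 of them also a T30 input peak. The T0 input list was longer than the T30 input list, and each came from 1 library, so these counts are not comparable between the times. Among the shared peaks, the median T30 fold was 2.88 in the 26 that overlapped an input peak and 2.34 in the 64 that did not. Whether input signal has a part in the other 64 was not tested.

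Summits of 16 shared peaks lay in genes that the gene table labels pseudogene (17.8%), against 0 of the 119 without a T0 peak and 2.7% of the whole T30 list. Of all bases beyond 1000 bp from protein-coding genes, 29.4% lay in such genes.

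A small number of shared peaks, 13 of 90, lay outside gene-poor regions. They included 4 at 34.31 to 45.88 kb from AT4G03820 on the short arm of chromosome 4, with folds of 2.25 to 2.96. The shared peak in the most gene-rich surroundings, with 242 genes in the window, was chr5:19891033-19892721, 1.92 kb from the fatty acid elongase gene KCS21 and with its summit in EXT11, an extensin gene that the table labels pseudogene. It had a fold of 2.23 at T30 and 2.67 at T0.

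Conversely, 13 peaks without a T0 peak lay in gene-poor regions, 3 of them the NIA2 peaks described above. Of the other 10, 7 had a T0 peak within 5 kb although they did not overlap it. The highest, chr5:12852782-12853674, had a fold of 11.6 and lay 64.11 kb from AT5G33898. It had a T0 peak 0.48 kb away and overlapped input peaks of both times, with the authors' input folds of 7.87 at T30 and 13.7 at T0. Input peaks of T0 were also overlapped by chr5:12824981-12826705 (fold 3.43, 37.27 kb from AT5G33898), chr5:11965042-11966628 (3.1, 111.15 kb from AT5G32440) and chr5:12062046-12062996 (2.14, 13.88 kb from the same gene). The peak farthest from any gene was chr3:13840557-13840931, with a fold of 2.73 at 179.93 kb, and chr5:12814046-12814457, at 25.36 kb, had the lowest fold of the T30 list, 2.01. In the 106 peaks without a T0 peak outside gene-poor regions, 0 overlapped an input peak and the distance from genes did not exceed 9.30 kb.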

How the data were processed

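Per the submitters' processing notes, Bowtie2 2.3.4.1, SAMtools 1.7 and MACS2 2.1.1 were among the authors' tools and TAIR10 was the build; parameters are not given in the sources used here. The 4 deposited lists hold 593 (T30) and 579 (T0) peaks from pooled replicates with a reproducibility filter, per the file names, and 22 (T30) and 87 (T0) input peaks. The authors' fold (a ratio), −log10 q and score are deposited per peak. Depth is unknown.

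Positions are 1-based on TAIR10. Distances to 27444 protein-coding genes used a RefSeq table of TAIR10.1, on the assumption that both assemblies share nuclear coordinates; it holds no strand or exons, and no genome sequence was used. The summit was the deposited start plus offset. Overlap was at least 1 bp. Base shares run to the last gene of each chromosome. The distance and overlap code was tested on simulated intervals. Python 3.11.15, pandas 2.3.3 and scipy 1.17.1 were used.

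Members and lists were chosen with earlier results of these data known. For peaks with and without a T0 overlap in turn, the named peaks were the 10 of highest fold, the 5 farthest from genes, those nearest to a list gene, and those overlapping input peaks or with summits in non-coding RNA genes (at most 12 each). Other peaks and genes were named after their values were seen. Alternatives changed the distance, gene classes, position, overlap, thresholds and gene-poor limit.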

Additional observations from a re-analysis of the deposited data

How the results depend on the processing

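Of 57 alternative values for 11 results, 52 stayed close to the reported ones. Close meant within 1.5 times for counts and medians and within the exact 95% interval for percentages. The factor of 1.5 is wider than the differences in median fold and width between far peaks with and without a T0 peak. Staying close therefore does not show that those differences held. With a 2000 bp limit, the median fold was 2.83 without a T0 peak and 2.49 with one, and the median width 366 and 488 bp. With peaks at or above the median T30 fold only, 95 far peaks were left, of which 24 overlapped a T0 peak. With a 2000 bp limit, 7 far peaks were nearest to a list gene, and 24.5% of the peaks without a T0 overlap were gene-poor; both follow from removing the peaks at 1 to 2 kb. Calling a region gene-poor below 150 genes raised the percentage among shared peaks to 97.8%. Counting distance from genes of every class left 145 far peaks, 61 of them shared. Restricting T0 peaks to the q limit of the T30 list, which kept 257 of them, left 88 shared far peaks. No paired analysis was possible because each time has 1 pooled list with no value per replicate, and no replicate could be left out for the same reason. The motif search was not run, since it needs a genome sequence.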

Other observations

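Several genes outside the lists, all beside far peaks without a T0 peak, were picked out after their values were seen; no test was made. Of the cytokinin response factor genes, which encode AP2-type regulators, CRF3 (AT5G53290) was nearest to peaks with folds of 3.32 at 2.19 kb and 2.32 at 6.0 kb. CRF2 (AT4G23750) lay 2.1 kb from a peak with a fold of 2.58, and CRF4 (AT4G27950) 2.78 kb from a peak with a fold of 2.11, though another gene was nearer in both cases. KMD1 (AT1G80440), an F-box gene of cytokinin signalling, lay 1.68 kb from a peak with a fold of 5.04, and the response regulator gene RR3 (AT2G41310) 4.2 kb from a peak with a fold of 4.25; again other genes were nearer.

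Of the GATA factor genes, GNC (AT5G56860), known as nitrate-inducible, had a peak with a fold of 3.62 at 3.12 kb, and its relative CGA1 (AT4G26150) one with 2.58 at 2.54 kb that was nearer to another gene. The plasma membrane proton pump genes HA1 and HA2, whose proton gradient drives nitrate uptake, each had 2 far peaks in a flanking gap. For HA2 (AT4G30190) the folds were 3.27 at 1.62 kb and 2.2 at 4.74 kb, and for HA1 (AT2G18960) 2.38 at 1.44 kb and 3.03 at 5.98 kb, the second nearer to another gene. BT5 (AT4G37610), a relative of BT1 and BT2, had a fold of 5.24 at 1.44 kb, and the phloem nitrate transporter gene NRT1.7 (AT1G69870) one of 3.07 at 1.47 kb.

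Among genes of carbon metabolism and hormones, PPC2, a phosphoenolpyruvate carboxylase gene, had a fold of 2.84 at 2.49 kb. PPCK1, which encodes a kinase of that enzyme, lay 1.88 kb from a peak with a fold of 4.71, whose nearest gene was MGP2. The trehalose phosphate synthase family gene TPS9 had a fold of 5.54 at 1.25 kb and the sucrose transporter gene SUC1 one of 3.25 at 9.30 kb. GA3OX1, for gibberellin synthesis, had 4.45 at 1.85 kb, PP2CA, a phosphatase of abscisic acid signalling, 3.87 at 1.98 kb, and DTX50, an abscisic acid exporter gene, 5.88 at 5.03 kb.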
